A study of Bos taurus with 8 samples.

Results

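The genes described here encode the nuclear part of the mitochondrial respiratory chain and ATP synthase. They were found on the arrays by name: a gene whose symbol in the scanner files, or whose current symbol through its accession, starts with NDUF, UQCR, COX4 to COX8 or ATP5, or is SDHA, SDHB, SDHC, SDHD, CYC1 or CYCS. The rule found 98 of the 16913 named genes on the array, on 224 of its 51282 probes, and it used no measured value. Of these, 95 were listed here by their current symbol under a complex or under the assembly factors of complex I. The other 3 carry a matching older name: EMC8, listed as COX4NB, is a subunit of the endoplasmic reticulum membrane complex, while DMAC2 and DMAC2L were listed as ATP5SL and ATP5S.

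RNA from 8 tissue samples was hybridised, each to its own Agilent bovine array in 1 colour, 4 from samples labelled pregnant and 4 from samples labelled non-pregnant. All 8 samples carry the labels fetal cotyledon, which is the fetal side of the ruminant placenta, and female sex, and the 2 groups differ in the label pregnant, yes or no, with descriptions that say after pregnancy for the first and before pregnancy for the second. The protocol text, shared by all samples, names pregnant buffalo from a slaughterhouse as the source of the gravid uteri, while the organism label is cattle, so buffalo RNA met cattle probes as far as that text goes. No label gives an age, a stage or the animal of a sample, so p-values here measure the spread between these samples, which may be technical.

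The respiratory chain sits in the inner mitochondrial membrane. Complexes I and II feed electrons from NADH and succinate into ubiquinone, complex III passes them to cytochrome c, complex IV hands them to oxygen, and ATP synthase uses the proton gradient that complexes I, III and IV build. Most subunits are encoded in the nucleus and imported, while a small core set is encoded by mitochondrial DNA, and several subunits of complex IV exist in forms known for heart and skeletal muscle, for lung, or for testis beside the general form.

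Levels are log2 spot intensities minus the array's own 75th percentile, so 0 is the 75th percentile of that array, and differences are arrays labelled pregnant minus arrays labelled non-pregnant. A gene is its brightest tested probe, and it was called when limma's p, adjusted over all 34627 tested probes, was below 0.05. The 75th percentile of intensity was 798, 970, 1019 and 1347 on the arrays labelled pregnant, against 1168, 1558, 1246 and 1797 on the arrays labelled non-pregnant. All 8 arrays lie on 1 slide, and each group fills 1 of its 2 rows, so slide row and group cannot be told apart. Arrays correlated at 0.943 to 0.989 within the first group, where array 4 gave the lowest values (0.943 to 0.951), at 0.957 to 0.987 within the second, and at 0.736 to 0.783 between the groups. Placental markers go against the labels: all 9 tested trophoblast genes were lower on the arrays labelled pregnant, with array medians of -4.63 to -2.17 there against 6.31 to 6.95 on those labelled non-pregnant, and PLAC1 and CDX2 cleared background on 0 of 4 arrays in that first group. Endometrial genes (7 of 8 higher) and leukocyte genes (7 of 8 higher) also differed. So did erythroid genes (7 of 7 lower) and cell cycle genes (5 of 5 lower). Of all tested genes, 29.9% were higher and 32.9% lower. The part of these cell types in the results below was not tested.

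Probes are 60 bases long and were read from the scanner files, whose headers name the cattle build Btau_3.1. Of the 97 members with a tested probe, 28 (28.9%) had the polyadenylation hexamer AATAAA, read 5′ to 3′ on the probe's own strand, in that probe, against 14.7% of all 13199 named genes with a tested probe. The stretches below come from the brightest probes of the muscle form COX7A1 (chr18:46231312-46231341, minus strand) and of the general form COX7A2 (chr9:14624798-14624827, minus strand), the pair whose difference was largest, with the hexamer in capitals.
COX7A1: cgaacaggcatcAATAAAtgtgctggtttc
COX7A2: ttagctgccaccAATAAAgcagtctttacc
The longest run shared by these probes in full was 7 bases, so they read different transcripts, while the brightest probes of the other 7 pairs of forms described below shared runs of 5 to 7 bases.

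Some genes are read by overlapping probes, which do not give independent readings. The COX6A2 probes below (chr25:29304624-29304683 and chr25:29304644-29304703, minus strand) share the 40 bases in capitals, and the 2 tested COX7A1 probes share 39 bases.
COX6A2 brightest probe: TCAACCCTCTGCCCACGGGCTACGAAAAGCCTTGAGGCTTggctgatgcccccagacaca
COX6A2 other probe: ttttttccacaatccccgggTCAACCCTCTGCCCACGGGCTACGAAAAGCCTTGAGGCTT
SDHB, the member of complex II that was higher on the arrays labelled pregnant, rests on the single probe below (chr2:140233139-140233198, plus strand).
SDHB: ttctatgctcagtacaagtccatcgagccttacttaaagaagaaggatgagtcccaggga
No annotation of this build was used here, so the part of the transcript that each probe reads is unstated.

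Of the 97 tested members, 56 were lower on the arrays labelled pregnant, 4 were higher and 37 were not called. That is 57.7% of the members lower and 4.12% higher, against 32.9% of all tested genes lower, 29.9% higher and 62.8% called in either direction. The median difference was -0.66 over the members and -0.03 over all tested genes. Members are bright genes, with a mean level of at least 2 in 80.4% of them against 28.3% of all genes. At that level 48 of 78 members were lower (61.5%) and 0 were higher, with a median difference of -0.68, while among all 3738 genes that bright 43.7% were lower, 15.6% were higher and the median difference was -0.42. All 4 higher members were among the 19 dimmer members, of which 8 were lower. The difference was below 0 for 83 of 97 members, which includes 27 of the 37 not called, against 50.8% of all genes.

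A change of at least 2-fold was called for 24 members in the lower direction, where 24.3% of all genes passed, and for 2 in the higher direction, where 23.9% passed. The groups did not overlap for 49 members that were lower (31.9% of all genes) and for 4 that were higher (28.4% of all genes). The share of members called in either direction, and the share called lower by 2-fold, were thus close to those of all genes. Most of the lower calls were under 2-fold. In bulk tissue, fewer cells of a type and less RNA per cell cannot be told apart.

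**Figure D1:**
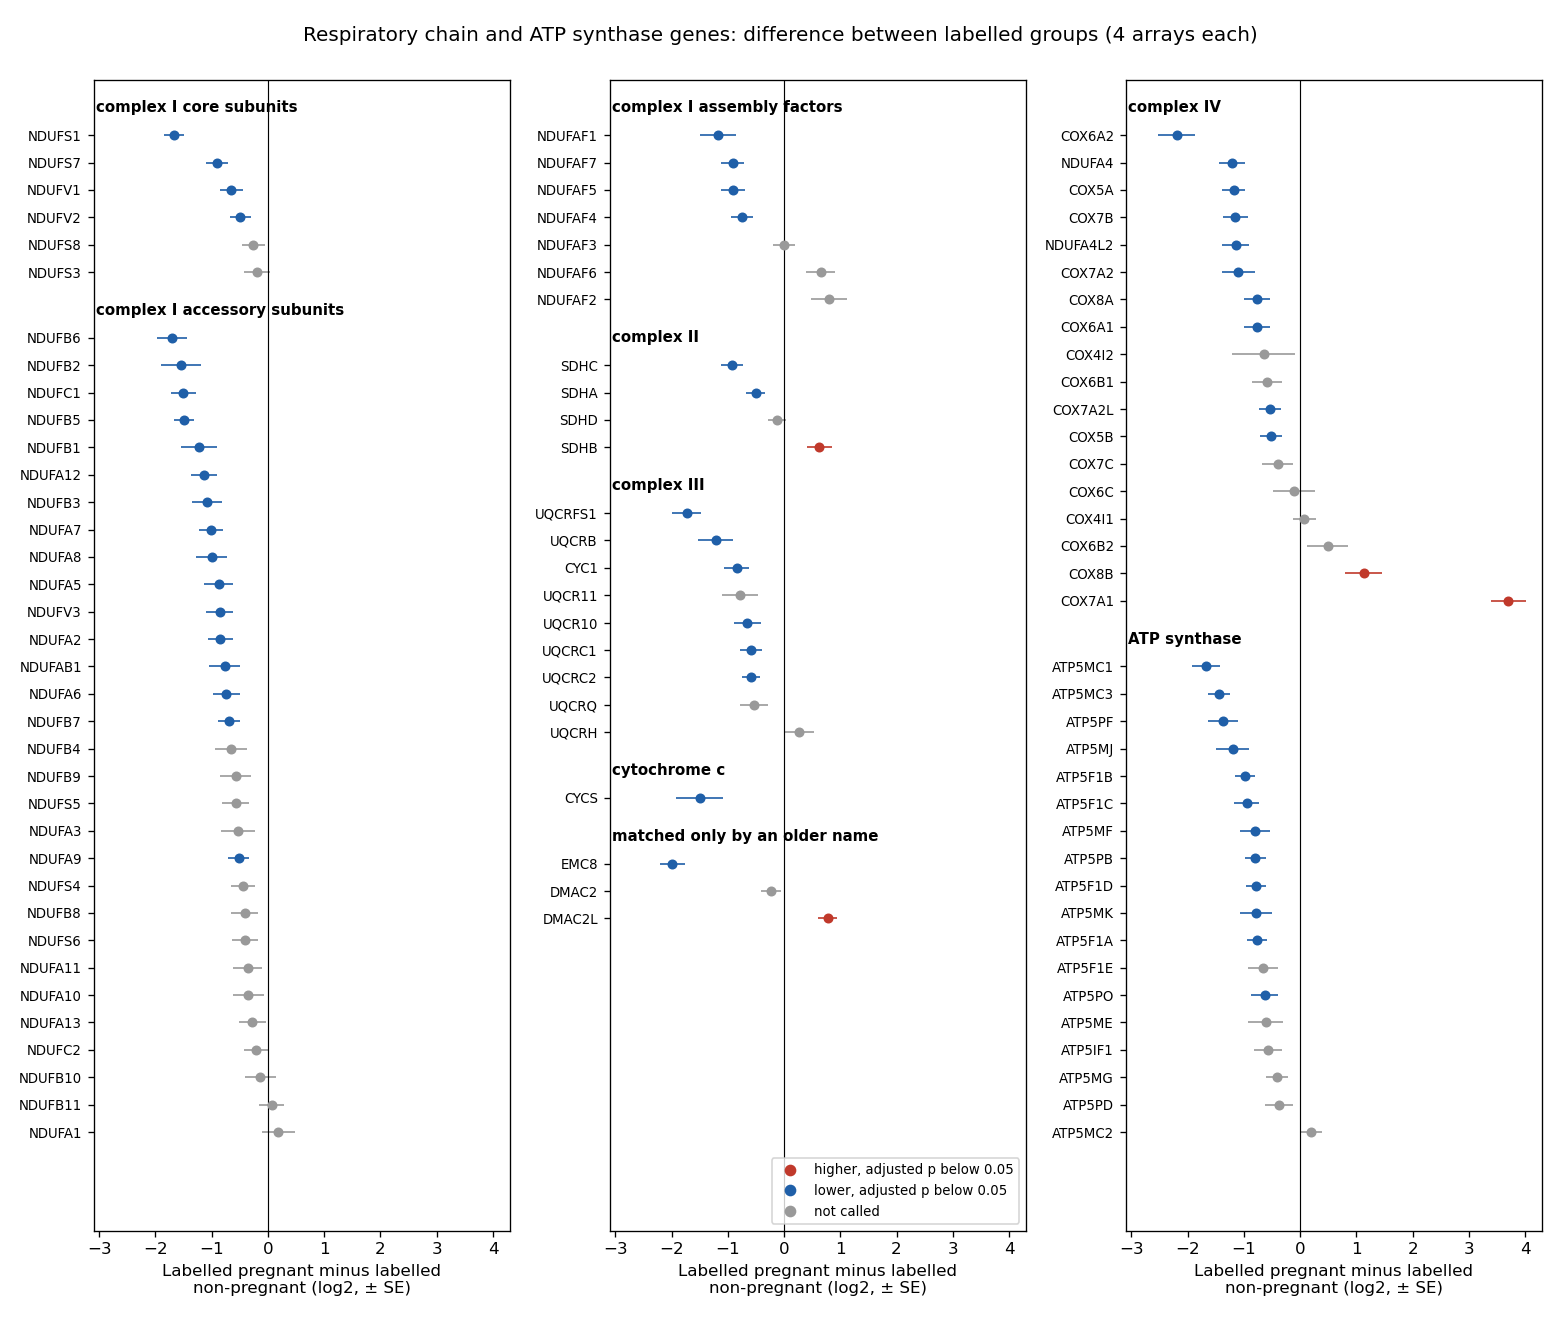
Difference of the tested members, with 1 left out, between the arrays labelled pregnant and those labelled non-pregnant (log2, point) with its standard error (bar), grouped by complex; 4 arrays per group. Red marks members that were higher and blue those that were lower at an adjusted p below 0.05, and COX7A1 at 3.70 stands far to the right of all others.

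The members' medians were 3.38, 3.71, 3.56 and 3.55 on the arrays labelled pregnant, against 4.82, 4.41, 4.42 and 3.87 on the arrays labelled non-pregnant. The groups did not overlap, and within the arrays labelled non-pregnant array 1 was the highest and array 4 came closest to the other group. Array 4 held the lowest value of its group for 80 of 97 members and array 1 the highest for 69. The medians over all genes with a mean level of at least 2 were 3.78, 3.53, 3.62 and 3.30 on the arrays labelled non-pregnant, so the same arrays were at the ends. Without array 4 of the labelled non-pregnant group 70 members were lower, and without array 1 of that group 45 were. With scaling by quantiles 32 members (33.0%) were lower, close to the 30.9% of all genes, and 10 (10.3%) were higher, against 4218 of all 13199 genes. The larger share of lower members than of lower genes thus depended on the scaling, and the share of higher among called members was 23.8% with quantiles and 6.67% as reported.

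**Figure D2:**
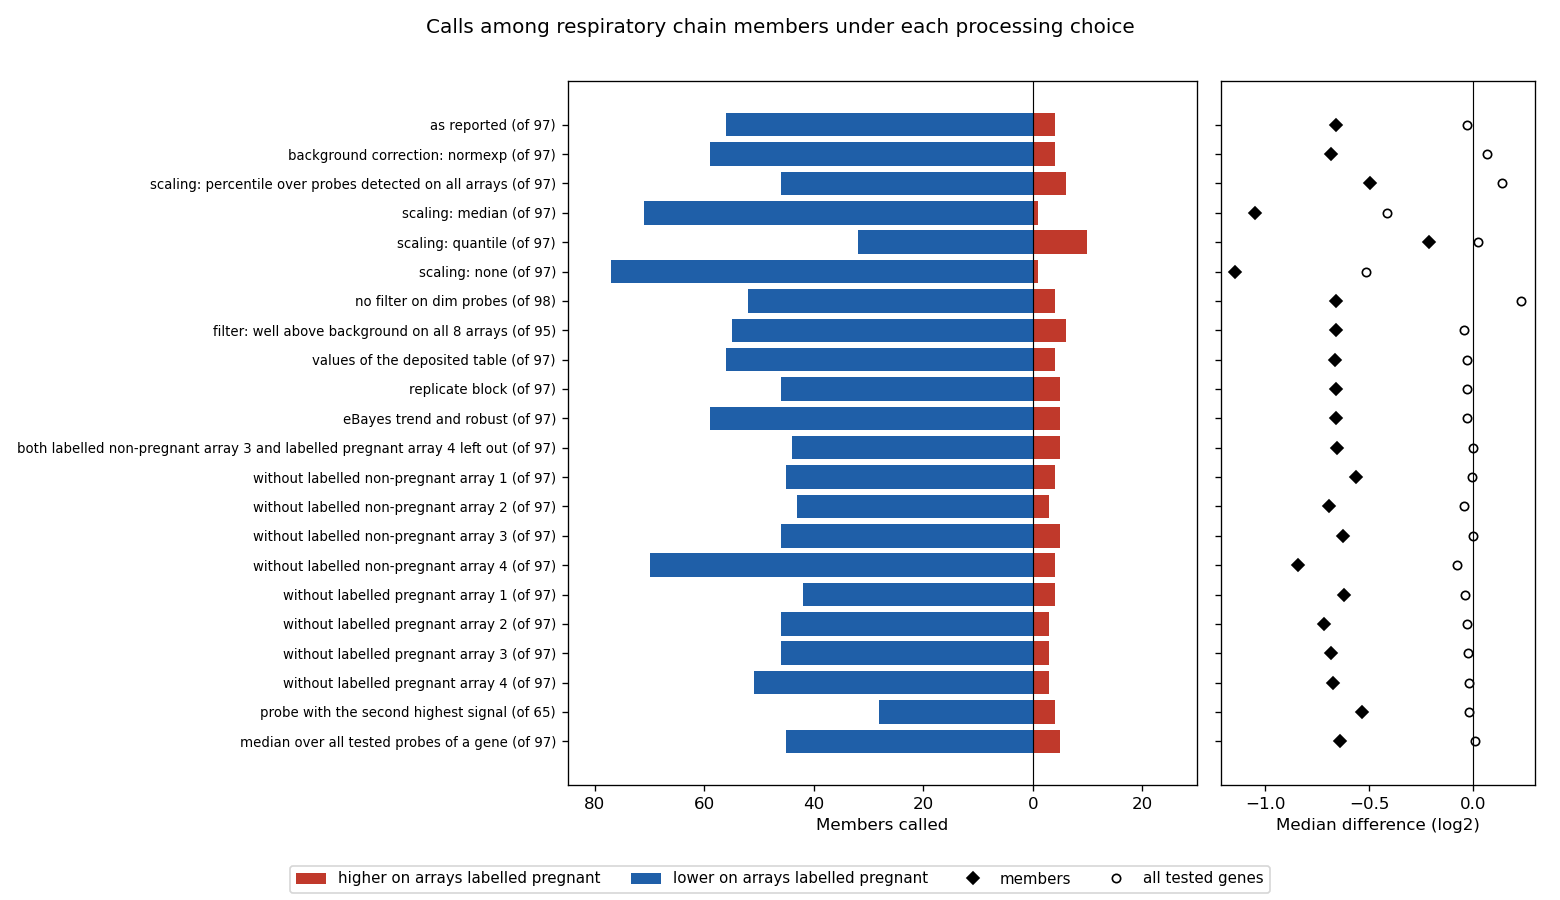
Members called higher (red) or lower (blue) on the arrays labelled pregnant under each processing setting (left, number of members), and the median difference of the members (diamonds) and of all tested genes (open circles) at the right (log2). Lower calls range from 28 of 65 members at the second brightest probe to 77 of 97 without scaling, and outnumber higher calls in every setting shown. The smallest share of lower members is 33.0% (32 of 97), with quantile scaling.

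**Figure D3:**
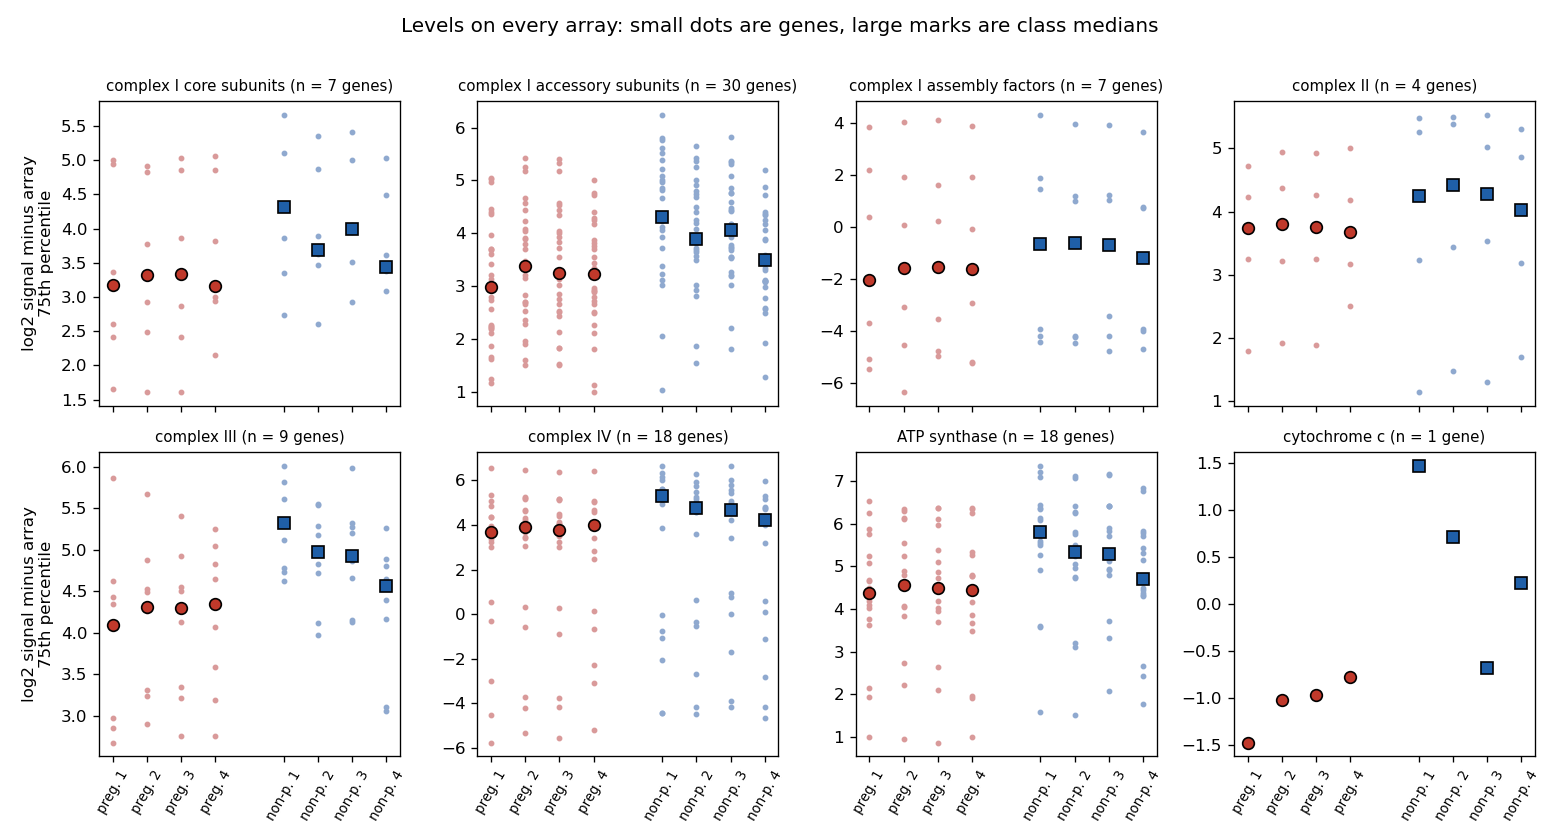
Level of each tested member on each array (log2 signal minus the array's 75th percentile), without the 3 genes matched by an older name. Arrays labelled pregnant are in red at the left of each panel and arrays labelled non-pregnant in blue at the right. Large marks are the median of the class on that array. The ATP synthase medians lie between 4.38 and 4.55 on the arrays labelled pregnant and between 4.71 and 5.80 on the arrays labelled non-pregnant.

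Complex I oxidises NADH. Its 7 nuclear core subunits carry the flavin, the iron-sulfur clusters and part of the quinone site. Of them, 4 were lower (57.1%, against 32.9% of all tested genes), 0 higher and 3 not called. Their median difference of -0.49 became 0.04 with scaling by quantiles. NDUFS1, the large iron-sulfur subunit of the NADH-oxidising arm, measured 1.65, 1.62, 1.61 and 2.15 on the arrays labelled pregnant, against 3.35, 3.46, 3.51 and 3.39 on the arrays labelled non-pregnant. Every array labelled pregnant was below every other array, with array 4 the highest of its group. NDUFS1 fell by 1.67 ± 0.19 (SE, limma adjusted p = 7.19e-05), or 3.18-fold, and 3 of its 4 other tested probes were also lower.

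NDUFS7, an iron-sulfur subunit next to the quinone site, averaged 2.84 ± 0.16 on the arrays labelled pregnant and 3.74 ± 0.27 on the arrays labelled non-pregnant (SD, n = 4 each), a difference of -0.91 (limma adjusted p = 0.00351) in which both other probes were also lower. NDUFV1, which binds NADH and the flavin, averaged 3.25 ± 0.10 on the arrays labelled pregnant, against 3.90 ± 0.32 on those labelled non-pregnant. Its difference of -0.65 (limma adjusted p = 0.0206) was lost without array 1 labelled pregnant (-0.63, adjusted p = 0.0509) and with quantile scaling (-0.21). The other called core subunit, NDUFV2, differed by -0.49, the smallest called difference among the members that were lower. NDUFS3 and NDUFS8, of the quinone-reducing part, were not called, at -0.20 and -0.26.

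The 30 accessory subunits surround the core and are needed to build or stabilise it. Of these, 16 were lower (53.3%, against 32.9% of all tested genes), 0 were higher and 14 were not called. Their median difference was -0.68. With quantile scaling 10 of the 30 were lower, against 30.9% of all tested genes with that scaling, and 2 higher. NDUFB6, a subunit of the membrane arm, measured 2.79, 3.32, 3.13 and 3.20 on the arrays labelled pregnant, against 5.40, 4.91, 4.76 and 4.18 on the arrays labelled non-pregnant. Without overlap between groups, array 4 was the lowest of those labelled non-pregnant. Its difference was -1.70 ± 0.27 (SE, limma adjusted p = 0.000616).

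NDUFB2, of the same arm, measured 1.62, 1.90, 1.84 and 2.96 on the arrays labelled pregnant, against 4.26, 3.72, 3.55 and 2.98 on the arrays labelled non-pregnant. Array 4 of each group stood near 3, so the groups were separated by a narrow margin. The difference was -1.55 ± 0.36 (limma adjusted p = 0.0053). NDUFC1, a further membrane-arm subunit, differed by -1.50 ± 0.22 (limma adjusted p = 0.000428) at its brightest probe, while its other tested probe, which was dimmer, was higher by 1.37 (adjusted p = 0.0257). NDUFA6 showed the same disagreement, with -0.74 at its brightest probe and 0.92 at the other. The remaining called accessory subunits ranged from -1.50 for NDUFB5 to -0.52 for NDUFA9, and those not called from -0.66 for NDUFB4 to 0.18 for NDUFA1.

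Complex I assembly factors help to put the subunits together and are not part of the finished enzyme. Of the 7 tested, 4 were lower (57.1%, against 32.9% of all tested genes), 0 higher and 3 not called, with a median difference of -0.75. With normexp background correction 2 were lower and 1 higher, and the median was -0.01, so the shift of the group was lost there. NDUFAF7, a methyltransferase needed to build complex I, measured -2.04, -1.59, -1.56 and -1.62 on the arrays labelled pregnant, against -0.66, -0.63, -0.68 and -1.18 on the arrays labelled non-pregnant. The groups did not overlap, and array 1 of the first and array 4 of the second stood low within their groups. It differed by -0.91 ± 0.21 (limma adjusted p = 0.0045). NDUFAF5, which hydroxylates NDUFS7, differed by -0.91 (limma adjusted p = 0.00502) and NDUFAF4 by -0.75 (limma adjusted p = 0.00983), a call that normexp also ended (-0.01, adjusted p = 0.978). NDUFAF1 differed by -1.17 (limma adjusted p = 0.0123), but it cleared the background test on 2 of 4 arrays of the labelled pregnant group and moved to -0.15 with normexp background correction (adjusted p = 0.46). NDUFAF2, NDUFAF3 and NDUFAF6 gave 0.80, 0.00 and 0.65 and were not called, and the other probe of NDUFAF6 was lower, at -1.98.

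Complex II, succinate dehydrogenase, is also an enzyme of the tricarboxylic acid cycle and has no subunit encoded by mitochondrial DNA. Of its 4 subunits 2 were lower, 1 higher and 1 not called, against 32.9% lower, 29.9% higher and 62.8% called of all tested genes. Their median difference was -0.31 and, with quantile scaling, 0.17. SDHC, a membrane anchor, measured 4.24, 4.37, 4.26 and 4.18 on the arrays labelled pregnant, against 5.48, 5.39, 5.03 and 4.87 on the arrays labelled non-pregnant. No array of the first group reached the second, and the difference was -0.93 ± 0.19 (limma adjusted p = 0.00286), although its other 2 tested probes were not called and quantile scaling left -0.33 (adjusted p = 0.0918).

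SDHA, the flavin subunit that oxidises succinate, averaged 4.90 ± 0.13 on the arrays labelled pregnant, against 5.40 ± 0.13 on the arrays labelled non-pregnant (SD, n = 4 each), without overlap. The difference of -0.50 ± 0.17 (limma adjusted p = 0.0276) lost its call in 5 of 8 fits without 1 array (without arrays 1, 2 or 3 labelled pregnant, or 2 or 3 labelled non-pregnant, adjusted p = 0.0608 to 0.0776), and with quantile scaling its sign turned, at 0.08. Its 3 other tested probes were not called, and the highest of them gave 0.45. SDHB, the iron-sulfur subunit whose probe is printed above, measured 1.80, 1.92, 1.90 and 2.50 on the arrays labelled pregnant, against 1.14, 1.48, 1.30 and 1.70 on the arrays labelled non-pregnant. It was higher on all arrays labelled pregnant, by 0.62 ± 0.22 (limma adjusted p = 0.0368), with array 4 the highest in both groups. That call was lost in 6 of 8 fits without 1 array (all but those without array 4 labelled non-pregnant or array 1 labelled pregnant), with adjusted p = 0.061 to 0.0837, and the value without array 4 labelled pregnant was 0.46. It was also lost with normexp (0.54, adjusted p = 0.0561), median scaling (0.24) and no scaling (0.14). SDHD, the other anchor, averaged 3.22 ± 0.04 on the arrays labelled pregnant, against 3.35 ± 0.16 on those labelled non-pregnant (SD, n = 4 each), and its difference of -0.13 was not called.

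Complex III moves electrons from ubiquinol to cytochrome c. Of its 9 nuclear subunits 6 were lower (66.7%, against 32.9% of all tested genes), 0 higher and 3 not called. Their median difference was -0.66. With quantile scaling 2 of the 9 were lower, against 30.9% of all tested genes with that scaling, and 1 higher. UQCRFS1, the Rieske iron-sulfur protein, measured 2.84, 3.23, 3.21 and 3.58 on the arrays labelled pregnant, against 5.11, 4.97, 5.32 and 4.39 on the arrays labelled non-pregnant. No value of one group reached the other, and UQCRFS1 fell by 1.73 ± 0.25 (limma adjusted p = 0.000387), or 3.32-fold, and both other tested probes were lower too.

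UQCRB, a small subunit near the ubiquinone site, measured 2.67, 2.90, 2.75 and 2.75 on the arrays labelled pregnant, against 4.62, 4.12, 4.12 and 3.06 on the arrays labelled non-pregnant. Array 4 of the second group again lay nearest to the first. The difference was -1.21 ± 0.31 (limma adjusted p = 0.00873), with 1 other probe lower, at -3.23, and 1 other probe higher by 2.24 (adjusted p = 0.00381). CYC1, the cytochrome c1 that receives the electrons, averaged 4.86 ± 0.18 on the arrays labelled pregnant and 5.70 ± 0.36 on the arrays labelled non-pregnant (SD, n = 4 each), a difference of -0.84 (limma adjusted p = 0.0103) that was -0.25 and not called with quantile scaling. The core proteins UQCRC1 and UQCRC2 each gave -0.58 and UQCR10 gave -0.66, all called. UQCR11, UQCRQ and UQCRH gave -0.79, -0.53 and 0.27 and were not called.

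CYCS, the cytochrome c that carries electrons between complexes III and IV and is known also from programmed cell death, measured -1.48, -1.03, -0.97 and -0.78 on the arrays labelled pregnant, against 1.47, 0.71, -0.68 and 0.22 on the arrays labelled non-pregnant. Array 3 labelled non-pregnant lay just above the nearest array labelled pregnant, and its group spread widely. The difference was -1.50 ± 0.42 (limma adjusted p = 0.0131), and the other probe gave -2.59 (adjusted p = 0.000342).

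Complex IV, cytochrome c oxidase, reduces oxygen to water. Of its 18 tested nuclear subunits and paralogues, 10 were lower (55.6%, against 32.9% of all tested genes), 2 were higher and 6 were not called. Their median difference was -0.62. With quantile scaling 5 of the 18 were lower, against 30.9% of all tested genes with that scaling, and 1 higher. COX7B2, a testis paralogue, was not tested because it was well above background on 1 array of each group.

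Outside the pairs of forms described below, COX5A, COX5B and COX7B were lower and COX6C and COX7C were not called. COX5A, a subunit on the matrix side, measured 3.23, 3.45, 3.49 and 3.40 on the arrays labelled pregnant, against 4.94, 4.59, 4.56 and 4.19 on the arrays labelled non-pregnant. The groups were apart by more than the range within the first. The difference was -1.18 ± 0.20 (limma adjusted p = 0.000938), and COX7B gave -1.15 and COX5B -0.52. COX7A2L, a relative of COX7A2 known for joining complexes III and IV into a larger assembly, gave -0.53 (limma adjusted p = 0.0392). NDUFA4, once counted with complex I and now with complex IV, averaged 4.51 ± 0.11 on the arrays labelled pregnant, against 5.72 ± 0.40 on those labelled non-pregnant (SD, n = 4 each), a difference of -1.20 (limma adjusted p = 0.00168).

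COX7A1, the heart and skeletal muscle form of subunit 7a, measured 3.49, 3.39, 3.24 and 2.48 on the arrays labelled pregnant, against -0.76, -0.35, 0.02 and -1.10 on the arrays labelled non-pregnant. All arrays labelled pregnant lay more than 2 log2 units above all others, and array 4 was the lowest of each group. It rose by 3.70 ± 0.31 (limma adjusted p = 1.44e-05), and its overlapping second probe gave 3.73. COX7A1 was called higher under every alternative tried. The general form COX7A2 measured 3.38, 3.70, 3.56 and 4.02 on the arrays labelled pregnant, against 5.35, 4.89, 4.78 and 4.02 on the arrays labelled non-pregnant. Array 4 of each group met at the same level, so these groups touched. The difference for COX7A2 was -1.10 ± 0.29 (limma adjusted p = 0.0107), with both other probes lower, and with quantile scaling it was not called (-0.57, adjusted p = 0.0614).

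Muscle genes moved in both directions beside COX7A1. Of 7 tested smooth muscle genes 5 were higher (71.4%, against 29.9% of all tested genes) and 0 lower. Their array medians were 1.30 to 2.86 on the arrays labelled pregnant and 0.11 to 0.58 on the arrays labelled non-pregnant. Within the arrays labelled pregnant, array 1 had the lowest smooth muscle median. COX7A1 lay between 3.24 and 3.49 on arrays 1 to 3 of that group and at 2.48 on array 4. Of 6 tested cardiac and skeletal muscle genes 4 were lower (66.7%, against 32.9% of all tested genes) and 0 higher. Their array medians were -5.00 to -4.08 on the arrays labelled pregnant, against -2.27 to -1.61 on those labelled non-pregnant. TNNC1 was not above background on 3 of 4 arrays labelled pregnant. The part of either list in the COX7A1 result was not tested.

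COX8B, the muscle form of subunit 8 in most mammals, measured -2.97, -3.70, -3.74 and -2.26 on the arrays labelled pregnant, against -4.43, -4.45, -4.15 and -4.16 on the arrays labelled non-pregnant. The groups did not overlap, and arrays 1 and 4 were the highest of the first. COX8B was higher by 1.13 ± 0.33 (limma adjusted p = 0.0164), a call lost at its second probe (0.97, adjusted p = 0.0662) and with median, quantile or no scaling (0.65 to 0.75). The general form COX8A averaged 5.11 ± 0.07 on the arrays labelled pregnant and 5.88 ± 0.42 on the arrays labelled non-pregnant (SD, n = 4 each), a difference of -0.77 (limma adjusted p = 0.0171) that was -0.22 and not called with quantile scaling.

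COX6A2, the heart and skeletal muscle form of subunit 6a, moved the other way from COX7A1 and COX8B. Its brightest probe, printed above, measured -4.50, -4.22, -4.14 and -5.17 on the arrays labelled pregnant, against -2.07, -2.70, -1.68 and -2.82 on the arrays labelled non-pregnant. It was lower on every array labelled pregnant, by -2.19 ± 0.33 (limma adjusted p = 0.000434), or 4.57-fold. The size depended on the probe and on the background correction, at -3.30 for the other probe and -1.13 with normexp (adjusted p = 0.00383), and it was called lower in both. The general form COX6A1 averaged 4.05 ± 0.11 on the arrays labelled pregnant, against 4.81 ± 0.41 on those labelled non-pregnant (SD, n = 4 each), and its difference of -0.76 (limma adjusted p = 0.0188) was lost without array 2 labelled non-pregnant (-0.71, adjusted p = 0.0536), without array 1 labelled pregnant (-0.71, adjusted p = 0.05) and with quantile scaling (-0.19).

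COX4I2, the lung form of subunit 4 known for its response to low oxygen, measured -5.75, -5.31, -5.57 and -3.08 on the arrays labelled pregnant, against -4.41, -4.17, -3.87 and -4.66 on the arrays labelled non-pregnant. Array 4 labelled pregnant lay above all others, and it was the single array of its group on which the probe was well above background. The difference of -0.65 was not called (limma adjusted p = 0.334), and with normexp it was 0.20. Without that array no array of the labelled pregnant group cleared background, and the measured mean of COX4I2 was 2.40-fold lower there (-5.54 against -4.28). That array was left out after its value was seen, so this is a description and not a test. The general form COX4I1 measured 6.57, 6.45, 6.35 and 6.42 on the arrays labelled pregnant, against 6.66, 6.26, 6.62 and 5.96 on the arrays labelled non-pregnant. These ranges overlapped and the difference was 0.07 (limma adjusted p = 0.774).

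COX6B2, the testis form of subunit 6b, averaged 0.32 ± 0.18 on the arrays labelled pregnant and -0.17 ± 0.79 on the arrays labelled non-pregnant (SD, n = 4 each). Its difference of 0.49 was not called. It was called without array 3 labelled non-pregnant, at 0.81 (adjusted p = 0.045), and its dimmer second probe was lower, at -1.77 (adjusted p = 0.00272). The general form COX6B1 gave -0.59 (limma adjusted p = 0.0829). NDUFA4L2, a paralogue of NDUFA4 known to be induced by low oxygen, measured -0.30, -0.57, -0.87 and -0.66 on the arrays labelled pregnant, against -0.02, 0.64, 0.96 and 0.59 on the arrays labelled non-pregnant. It was lower on every array labelled pregnant, by -1.14 ± 0.24 (limma adjusted p = 0.00334).

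The forms of a subunit were set against each other within each array, which removes any scaling by a constant. There were 8 pairs, and with 4 arrays per group the smallest p of the two-sided exact permutation test is 0.0286, which becomes 0.0571 after Benjamini-Hochberg adjustment when 4 of 8 pairs reach it, so 0 pairs passed the adjusted threshold of 0.05 while these 4 passed an unadjusted p of that size. COX7A1 minus COX7A2 averaged -0.51 ± 0.71 on the arrays labelled pregnant and -5.31 ± 0.57 on the arrays labelled non-pregnant (SD, n = 4 each), a shift of 4.80 (exact permutation p = 0.0286, adjusted 0.0571). COX8B minus COX8A shifted by 1.90 with the same exact permutation p, and by 0.97 with quantile scaling. COX6A2 minus COX6A1 shifted by -1.43 with the same exact permutation p, by -2.31 with quantile scaling, and by -0.37 with normexp background correction, where its adjusted exact permutation p was 0.457.

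The ATP synthase pair ATP5MC2 minus ATP5MC3 averaged 1.59 ± 0.20 on the arrays labelled pregnant and -0.04 ± 0.02 on the arrays labelled non-pregnant (SD, n = 4 each), a shift of 1.63 (exact permutation p = 0.0286, adjusted 0.0571). For these 4 pairs no array of either group overlapped with the other, although with normexp 3 of them kept the smallest p and COX6A2 did not. The remaining pairs did not reach that p. COX6B2 minus COX6B1 shifted by 1.08 (exact permutation p = 0.2), COX4I2 minus COX4I1 by -0.72 (p = 0.314, exact) and ATP5MC1 minus ATP5MC3 by -0.23 (p = 0.229, exact). NDUFA4L2 minus NDUFA4 shifted by 0.06 (exact permutation p = 0.914), and by -0.53 with quantile scaling.

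**Figure D4:**
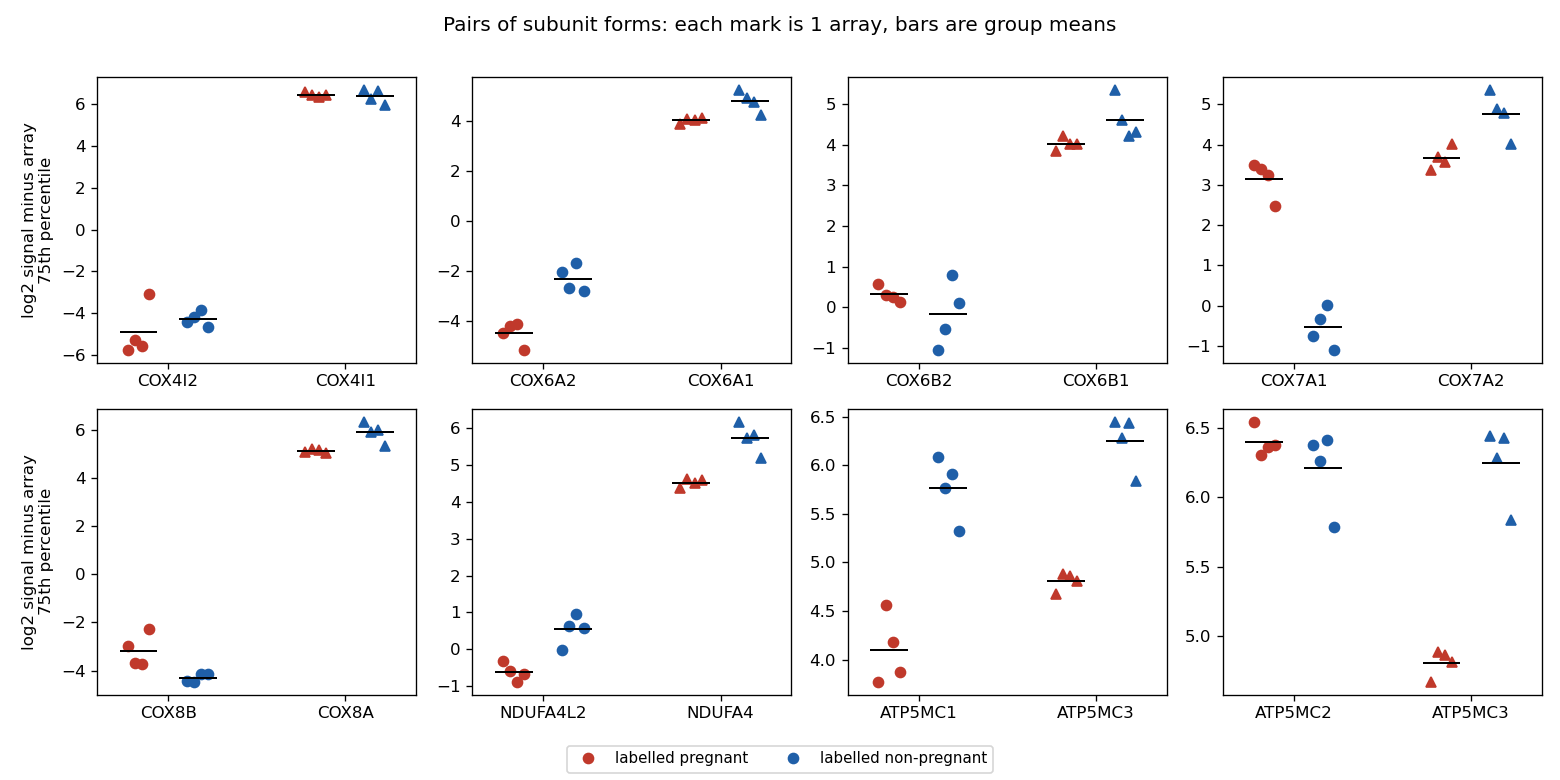
Levels of both genes of each of the 8 pairs on every array (log2 signal minus the array's 75th percentile), with red for arrays labelled pregnant and blue for arrays labelled non-pregnant; short bars are group means. COX7A1 is higher and COX7A2 lower on the arrays labelled pregnant, and ATP5MC3 is lower while ATP5MC2 stays within the range of the other group or above it.

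ATP synthase turns the proton gradient into ATP. Of its 18 tested genes, 12 were lower (66.7%, against 32.9% of all tested genes), 0 higher and 6 not called. Their median difference was -0.78. With quantile scaling 7 of the 18 were lower, against 30.9% of all tested genes with that scaling, and 1 higher. In the rotor, ATP5MC1, ATP5MC2 and ATP5MC3 encode the same mature subunit c with different import sequences. ATP5MC1 measured 3.77, 4.56, 4.18 and 3.87 on the arrays labelled pregnant, against 6.08, 5.76, 5.91 and 5.32 on the arrays labelled non-pregnant. ATP5MC1 was lower on every array labelled pregnant, and it fell by 1.67 ± 0.25 (limma adjusted p = 0.00041), with both other probes lower.

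ATP5MC3 measured 4.67, 4.88, 4.86 and 4.81 on the arrays labelled pregnant, against 6.44, 6.28, 6.43 and 5.83 on the arrays labelled non-pregnant. It was lower on every array labelled pregnant, by -1.44 ± 0.19 (limma adjusted p = 0.000226). ATP5MC2 measured 6.54, 6.31, 6.36 and 6.38 on the arrays labelled pregnant, against 6.38, 6.26, 6.41 and 5.79 on the arrays labelled non-pregnant. Its groups overlapped, and the difference of 0.19 was not called (limma adjusted p = 0.43), while with quantile scaling it was 0.54 and called higher (adjusted p = 0.0157).

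The catalytic head holds ATP5F1A and ATP5F1B, at -0.77 and -0.98, the central stalk ATP5F1C and ATP5F1D, at -0.95 and -0.78, and all 4 were called lower. The remaining gene of the stalk, ATP5F1E, gave -0.66 and was not called (limma adjusted p = 0.0594). In the peripheral stalk ATP5PF, also called coupling factor 6, measured 3.62, 3.83, 3.70 and 3.49 on the arrays labelled pregnant, against 5.60, 5.06, 5.13 and 4.33 on the arrays labelled non-pregnant. All arrays labelled pregnant lay below all others, and ATP5PF differed by -1.37 ± 0.27 (limma adjusted p = 0.00209). ATP5PB and ATP5PO were lower by differences of -0.79 and -0.63, and ATP5PD was not called, at -0.37. Of the small membrane subunits ATP5MJ, ATP5MF and ATP5MK were lower, at -1.20, -0.80 and -0.78, and ATP5ME and ATP5MG were not called, at -0.61 and -0.41. ATP5IF1, the protein that inhibits ATP hydrolysis by the enzyme, was not called, at -0.57 (limma adjusted p = 0.0813).

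The 3 genes matched by an older name did not move together. EMC8 averaged 3.21 ± 0.17 on the arrays labelled pregnant and 5.19 ± 0.34 on the arrays labelled non-pregnant (SD, n = 4 each), a difference of -1.98 (limma adjusted p = 6.53e-05). DMAC2L measured 1.82, 1.54, 1.66 and 1.74 on the arrays labelled pregnant, against 0.81, 0.90, 1.19 and 0.76 on the arrays labelled non-pregnant. It was higher by 0.77 ± 0.18 (limma adjusted p = 0.00449), a call lost with median scaling (0.39) or none (0.29), and DMAC2 was not called, at -0.23.

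Of the 65 members with more than 1 tested probe, 40 were called, and another probe was called in the same direction for 27 of these. For NDUFA6, NDUFC1 and UQCRB another probe was called in the opposite direction.

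The remaining genes of the pathway were taken from lists. Subunits encoded by mitochondrial DNA belong to complexes I, III and IV and to ATP synthase. Of 9 tested, 1 was higher (11.1%, against 29.9% of all tested genes), 0 were lower (against 32.9%) and 8 were not called. Their median difference was -0.01 (-0.40 with median scaling and -0.50 with none). With median scaling, and also with none, 2 of the 9 were lower and 0 higher. For CYTB, of complex III, 1 of its 4 other tested probes was called lower. COX3, of complex IV, measured 7.43, 7.36, 7.06 and 6.91 on the arrays labelled pregnant, against 7.49, 6.97, 7.70 and 6.66 on the arrays labelled non-pregnant. These ranges overlapped. ND5, of complex I, was the called gene, at 0.55 ± 0.20 (limma adjusted p = 0.0405), and without array 2, 3 or 4 of either group 0 genes of the list were called. The difference between these genes and the nuclear members was not tested.

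Assembly factors other than those of the NDUFAF names insert metals, haem and subunits. Of 44 tested, 26 were lower (59.1%, against 32.9% of all tested genes), 4 higher and 14 not called, with a median of -0.72. At the second brightest probe, tested for 23 of them, 7 were lower and 3 higher, with a median of -0.01. COX18, which inserts a subunit of complex IV into the membrane, cleared background on 0 of 4 arrays in the labelled pregnant group. It was at least 6.76-fold lower there. COX18, TACO1 and HIGD2A met the filter on dim probes only through the arrays labelled non-pregnant, so the filter favoured their lower direction. With the filter set to all 8 arrays, 39 of these factors were tested, of which 22 were lower and 4 higher. COA7 differed by -2.65 ± 0.63 (SE). Its groups overlapped, with 1.26 on array 2 labelled pregnant and 1.01 on array 3 labelled non-pregnant. UQCC1, a complex III factor, differed by -1.72. The higher genes were COX16 (1.45) and TTC19 (1.22), SDHAF1, which serves the iron-sulfur subunit of complex II (mean 0.87 on the arrays labelled pregnant, against -0.23 on those labelled non-pregnant), and UQCC3 (0.86), whose 3 other probes were higher as well.

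Of 20 tested genes of membrane carriers, import and membrane shape, 12 were lower and 1 higher, with a median of -1.07. Of all tested genes 32.9% were lower and 29.9% higher, and 43.7% were lower among those with a mean level of at least 2. The ADP/ATP carrier SLC25A5 measured 1.71, 2.48, 2.39 and 3.33 on the arrays labelled pregnant, against 5.40, 5.32, 5.46 and 5.16 on the arrays labelled non-pregnant. It fell by 2.86 ± 0.32 (limma adjusted p = 7.14e-05), and the outer membrane channels VDAC3 and VDAC1 fell by 1.95 and 1.90. MFN1, which fuses outer membranes, was the higher gene, at 0.62.

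Of 13 tested genes of the tricarboxylic acid cycle, 5 were lower (38.5%, near the 32.9% of all tested genes) and 0 higher, among them citrate synthase CS (-1.46), MDH2 (-1.42) and DLD (-1.16), with a median of -0.31 that was 0.03 with quantile scaling. Of 11 genes of ubiquinone synthesis 5 were lower (45.5%), with COQ2 at -1.91, COQ3 at -1.04 and COQ5 at -0.84, and COQ8A was higher, at 1.81. Of 16 regulators of mitochondrial biogenesis 4 were lower and 1 higher, which is less than the share of all tested genes in both directions. GABPA, a subunit of the factor known to bind promoters of many chain genes, measured -2.36, -2.32, -2.66 and -2.25 on the arrays labelled pregnant, against 2.06, 1.64, 1.65 and 1.44 on the arrays labelled non-pregnant. It rests on 1 tested probe, and it differed by -4.09 ± 0.20 (limma adjusted p = 7.51e-07). TFAM, which packs and transcribes mitochondrial DNA, differed by -1.11, and TFB1M was lower too, while NRF1, another factor of chain gene promoters, was higher by 1.38 (limma adjusted p = 0.00339).

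**Figure D5:**
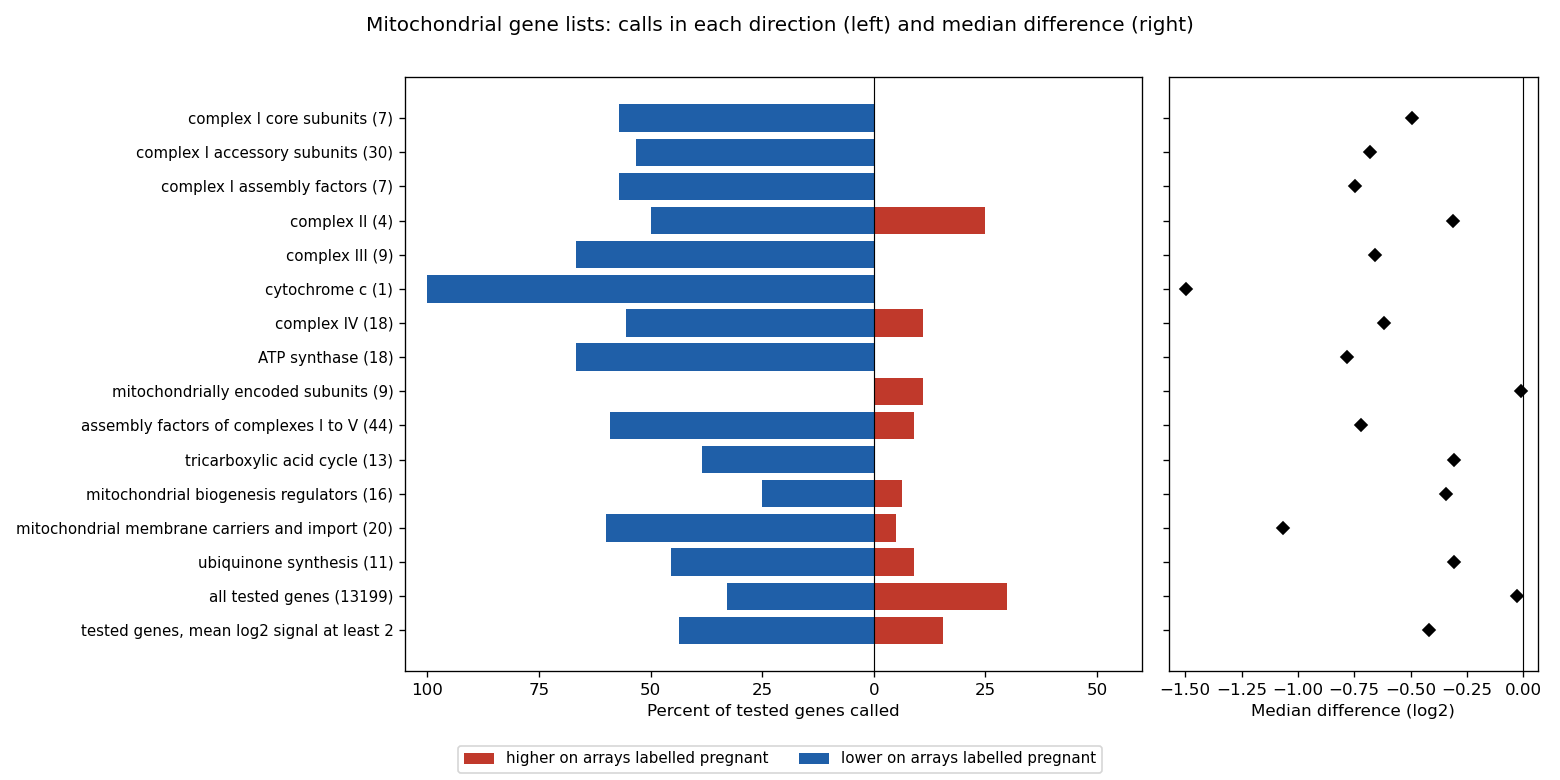
Left, percent of the tested genes of each list (number in brackets) that were called higher (red, to the right) or lower (blue, to the left) on the arrays labelled pregnant; right, the list's median difference (log2). The blue bars hold 6 of 9 genes for complex III and 12 of 18 for ATP synthase, against 32.9% of all tested genes, and mitochondrially encoded subunits have no blue bar.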

How the data were processed

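Per the file headers, the deposited intensity values come from 1-colour scans read with Agilent Feature Extraction 11.5.1.1 (background and spatial trend subtracted, no scaling between arrays), beside other columns of 0 or 1 flags. A deposited log2 table of the same arrays, set against log2 intensity (correlation at least 0.999 per array), served as an alternative, and its scale, centring and direction were read from that comparison. Its column medians were -3.56, -3.61, -3.64 and -3.61 for the arrays labelled pregnant, against -4.21, -4.01, -4.00 and -3.77 for the arrays labelled non-pregnant.

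From the 61657 spots of each array, after leaving out 1319 control spots and, over all arrays, 119 outlier spots, log2 intensity minus the array's 75th percentile was averaged per probe; 0 spots were saturated. A probe was tested if the scanner's flag put it above background on 4 or more of 8 arrays, using limma 3.58.1 in R 4.3.3 (lmFit, eBayes), with Benjamini-Hochberg adjustment and a threshold of 0.05, after a test on simulated data. The number of arrays limits the precision. For probes that cleared background on 0 arrays of a group, the fold is a bound. It was set against the dimmest signal that cleared it on each array, or against the probe's own signal where that was higher. SciPy 1.17.1 gave the permutation tests.

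Gene names came from accessions matched to a table of cattle reference genes, used for names only: 28112 probes matched by accession, 1770 by another accession, 5521 by symbol and 159 by synonym, and 15720 kept the file's name. Named by rule were the 3 highest and 3 lowest called differences of each class, all isoform pairs, complex II, CYC1, CYCS and up to 3 called genes per direction of the other lists; further members complete a count or bound a range and were chosen after their values were seen. The members and lists were chosen with earlier results of these data known, so the counts are descriptions. NDUFAF8 and COX8C were not analysed here, and the values of 1 member are not reported.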

Additional observations from a re-analysis of the deposited data

Results flagged for a closer look

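Among the 72 groups of 4 arrays examined for the 36 named members, 4 held an array set apart from the rest of its group by Dixon's test at the 95% level, which chance gives in about 1 in 20 groups. COX4I2 was -3.08 on array 4 labelled pregnant, well above the other 3 arrays of that group. NDUFS1 was 2.15 on the same array, also above its group, and array 4 was the array that correlated least with the others labelled pregnant. NDUFAF7 was -2.04 on array 1 labelled pregnant and -1.18 on array 4 labelled non-pregnant, below the rest of the group in both cases. NDUFS1 and NDUFAF7 stayed lower in each fit without 1 array.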

How the results depend on the processing

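Every count of members called lower exceeded the count called higher under the alternatives tried. With median scaling 1 member was higher and the median difference was -1.05 (all genes -0.41), without scaling 1 was higher and the median was -1.14 (all genes -0.51), and with quantile scaling 10 were higher, 32 lower (33.0%, against 30.9% of all genes) and the median was -0.21. Median and no scaling moved the median of all tested genes, as did the percentile over probes detected on all arrays (0.14). These 3 scalings shift all genes of an array by a constant. The members' median minus that of all genes therefore had to stay as reported, at -0.63. With quantile scaling, which is not such a shift, it was -0.24. The share of higher genes among all called was 47.6%, against 34.9% with median scaling and 31.7% with none. At the second brightest probe 28 of 65 members were lower and 4 higher. Fits without 1 array gave 42 to 70 members lower, 3 to 5 higher and a median of -0.84 to -0.56. Same-numbered arrays did not deviate together in all pairs (correlations 0.01, 0.08, 0.05 and 0.15), so the numbers were not taken as pairs; with the replicate number as a block 46 members were lower and 5 higher. Of 741 values for the 36 named members, 677 kept direction and side of the threshold, 41 lost a call, 8 gained one and 15 changed sign. Of members called as reported, SDHA changed sign with quantile scaling (0.0821), and NDUFC1 (1.37), UQCRB (2.24) and NDUFV1 (0.55) at the second brightest probe. Of members not called as reported, COX6B2 (-1.77, called lower) and COX4I1 (-0.28) changed sign at that probe, COX6B2 over the median of its probes (-0.64), COX4I2 with normexp (0.20), SDHD with the percentile over detected probes (0.0381) and with quantiles (0.27), ATP5MC2 (-0.20, -0.30) and COX4I1 (-0.31, -0.41) with median and no scaling, and COX4I1 without array 4 labelled non-pregnant (range without 1 array -0.0652 to 0.17). The pair shifts changed sign for NDUFA4L2 against NDUFA4 with quantiles (-0.53) and for COX4I2 against COX4I1 with normexp (0.10), an alternative for the pairs chosen after seeing the data. The cause of these changes was not tested. Without 1 array the pair shifts ranged from 4.53 to 5.14 for COX7A1 against COX7A2, 1.57 to 2.14 for COX8B against COX8A, -1.61 to -1.18 for COX6A2 against COX6A1, 1.53 to 1.68 for ATP5MC2 against ATP5MC3, 0.55 to 1.53 for COX6B2 against COX6B1, -1.35 to -0.41 for COX4I2 against COX4I1, -0.36 to -0.16 for ATP5MC1 against ATP5MC3 and -0.27 to 0.26 for NDUFA4L2 against NDUFA4. Signal near background limits COX4I2, NDUFAF1, NDUFAF4, COX6A2 and COX7B2, among others not listed.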
